A study of Mus musculus with 24 samples.

Results

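Caveolins, cavins and the caveolar ATPase Ehd2 were described in brown adipose tissue (BAT) RNA of 24 mice. The 6 genes were chosen by name as proteins of the caveolar coat, and they are 6 of the 12615 genes in the count table. The rule of choice named 1 measured value, namely that Cav2 counts were lower in the cold. Each passed the filter on low counts, so 6 of the 12485 genes tested are members. Because the cold difference of Cav2 entered the choice, the differences between temperatures are given for the 6 genes as a description, with no p-value, and the number called in that contrast is printed only beside the share over all genes. The rule named no genotype difference, so the comparisons of labelled genotypes were tested, although earlier results of these data were known when members and tests were chosen.

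Caveolae are small flask-shaped pits of the plasma membrane that are abundant in fat cells, endothelial cells and muscle. Caveolins are hairpin proteins of the inner leaflet that bind cholesterol and build the bulb, cavins form a coat on its cytosolic face, and Ehd2 sits at the neck and holds the pit at the surface. In fat cells these pits buffer membrane tension as the cell changes size and carry receptors and lipid transporters.

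The study compared mice lacking 2 transcriptional corepressors, TBLR1 (gene Tbl1xr1) and TBL1 (gene Tbl1x), in brown adipocytes with controls, at a temperature that demands no heat production and in the cold. All mice carried floxed alleles of both genes (TBLR1 fl/fl;TBL1 fl/fl) and received tamoxifen, and BATdKO mice also carried Ucp1CreERT2, a recombinase made from the Ucp1 promoter and therefore active only in cells that express Ucp1, while Cre- mice lacked it. Per the labels the mice were female, were born and raised at 22°C, and began the temperature protocol 3 weeks after the last tamoxifen injection, when they moved either straight to 30°C for 4 days or through 18, 16 and 12°C, each for 1 day, to 8°C for 6 days, with 6 mice in each of the 4 groups. The paper states 3 days at 8°C, a legend describes male mice in smaller groups, and the age at tamoxifen is given as 5 in years by the labels and in weeks by the paper. The labels do not say whether mice shared a litter or a batch, and the libraries of 30°C and of 8°C mice carry separate runs of library numbers, so that library order and temperature cannot be told apart.

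The libraries held 699703 to 11527643 counts (median 6644364.5), and 1 library, Cre- 30°C mouse 4, had the lowest total. Levels are given as CPM, counts scaled to a common library size after TMM normalization. Tbl1xr1 was higher, not lower, in the libraries labelled BATdKO than in those labelled Cre- at 8°C (39.8 ± 4.01 against 20.9 ± 2.24 CPM, SD, n = 6 each), and Tbl1x likewise (53.8 ± 6.75 against 40.7 ± 1.88 CPM). At 30°C mouse 6 of each label went against the other 5 mice of its group, with Tbl1xr1 at 38.6 CPM in the library labelled Cre- and at 17.0 CPM in that labelled BATdKO. Tbl1x in these libraries was likewise the highest of the Cre- group, at 53.5 CPM, and the lowest of the BATdKO group, at 39.7 CPM. Whether the 3′ tags lie in the deleted exons is not given in the sources used here, so groups are named by their labels. Whether labels were exchanged was not tested. An exchange of all labels would turn the sign of the genotype differences given here. An exchange of mouse 6 alone at 30°C would change the values of both 30°C groups, and with them the cold differences and the correlations. Ucp1, the defining gene of brown adipocytes, ranged from 28.9 to 548 CPM at 30°C in libraries labelled Cre- and from 968 to 2076 CPM at 8°C. In those labelled BATdKO it ranged from 84.7 to 412 CPM at 30°C and from 1331 to 2029 CPM at 8°C. At 30°C mouse 6 had the highest Ucp1 of the Cre- group and the lowest of the BATdKO group. All 8 of 8 hepatocyte markers were also present, with summed levels of 25316 to 37007 CPM over the 24 libraries, and Alb, the serum albumin of liver, lay above Ucp1 in 24 of 24 libraries.

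Cav2 and Cav1 are neighbours on chromosome 6 on the same strand. In the GENCODE vM21 annotation of GRCm38, Cav2 spans chr6:17281185-17289115 and Cav1 spans chr6:17306335-17341452, with 17219 bases between them. Their upstream sequences are shown because Cav2 is the gene whose cold difference entered the choice, and Cav1, its neighbour, encodes its binding partner. Each is the 250 bases before the annotated start on the plus strand, from RefSeq (GRCm38.p6), at chr6:17280935-17281184 for Cav2 and chr6:17306085-17306334 for Cav1, written 5′ to 3′, with capitals marking matches to the motifs named next.
Cav2: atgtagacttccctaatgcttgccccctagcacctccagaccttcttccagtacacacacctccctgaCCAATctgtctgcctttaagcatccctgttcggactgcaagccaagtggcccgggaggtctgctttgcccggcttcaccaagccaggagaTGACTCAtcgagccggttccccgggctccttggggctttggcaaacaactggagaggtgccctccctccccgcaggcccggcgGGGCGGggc
Cav1: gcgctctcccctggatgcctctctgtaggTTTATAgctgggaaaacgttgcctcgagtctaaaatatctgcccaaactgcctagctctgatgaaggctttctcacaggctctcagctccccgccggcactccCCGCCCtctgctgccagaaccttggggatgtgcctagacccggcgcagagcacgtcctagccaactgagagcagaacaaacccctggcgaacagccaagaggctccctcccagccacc
The motifs searched on both strands were the GC box with the letters GGGCGG, the CCAAT box, the E-box with the letters CACGTG, the AP-1 site with the letters TGANTCA, the cAMP response element with the letters TGACGTCA, the nuclear receptor half-site with the letters AGGTCA, and the TATA box with the letters TATAAA. No pair of these matches overlapped in either sequence. The Cav2 sequence held 1 CCAAT box, 1 AP-1 site and 1 GC box, which occur in 33.8%, 6.75% and 32.7% of 32851 upstream sequences of the same length. The Cav1 sequence held 1 TATA box and 1 GC box, both read on the reverse strand, and a TATA box occurs in 12.4% of upstream sequences. Neither held an E-box (6.02% of upstream sequences), a cAMP response element (1.55%) or a nuclear receptor half-site (14.0%). Cav1 had another upstream sequence in the table used, at chr6:17307390-17307639, which is not shown and held no match to any of these motifs. Of the 6 genes, 5 had an upstream sequence in that table, and Cavin3 had none. A match of letters is a description of the sequence and not of binding.

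Cavins made up most of the caveolar counts in BAT. Because the kit reads each transcript through a 3′ tag, counts do not grow with transcript length, and levels can be set side by side between genes. Over the 24 libraries the mean levels were 103 CPM for Cavin1, 91.7 CPM for Cavin2, 27.1 CPM for Cav1, 23.8 CPM for Ehd2, 15.6 CPM for Cav2 and 3.38 CPM for Cavin3. Cavin2 lay above Cav1, and Cav2 above Cavin3, in 24 of 24 libraries. Cavin1 lay above Cavin2 in 17 of 24 libraries and Cav1 above Ehd2 in 17 of 24, and within each group these neighbours differed by less than the sum of their SDs. Ehd2 lay above Cav2 in 22 of 24 libraries. The 3 cavins together were 75.0% ± 4.42 (SD, n = 24) of the counts of the 6 genes, Cav1 with Cav2 16.2% ± 3.75, and Ehd2 8.82% ± 1.86.

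Cav2, the partner that forms hetero-oligomers with caveolin-1 and depends on it to reach the plasma membrane, was lower at 8°C than at 30°C under both genotype labels. In libraries labelled Cre- its lowest, median and highest levels were 11.4, 17.9 and 26.8 CPM at 30°C and 6.82, 10.0 and 11.3 CPM at 8°C. Every Cre- mouse at 8°C lay below every Cre- mouse at 30°C, although the lowest at 30°C and the highest at 8°C were nearly level. The share of all genes without overlap between these groups was not counted, so nothing is read from this. In libraries labelled BATdKO the levels were 13.8, 22.0 and 33.3 CPM at 30°C and 9.40, 11.7 and 16.1 CPM at 8°C, and the groups overlapped, because mouse 6 at 30°C lay below 2 of the mice at 8°C. On the log2 scale the fitted cold difference was -0.92 (SE 0.20) in libraries labelled Cre-, which is 47.2% lower, and -0.84 (SE 0.20) in those labelled BATdKO, which is 44.3% lower. With libraries scaled to 9 brown adipocyte markers other than Ucp1 in place of TMM, these differences were -1.34 (SE 0.29) and -0.89 (SE 0.28). Cav2 was then no longer called under the BATdKO label, where 0.729% of all genes were called, against 7.07% with TMM. Under the Cre- label it was still called, beside 2.86% of all genes, against 9.15% with TMM. Nothing is read from these calls. Measured from the median of all genes, the differences were -0.75 and -0.79, against -0.90 and -0.84 with TMM. Scaling moves all genes of a library together, so this distance depends little on it and is only a description. The plot of CPM by mouse shows the lower 8°C levels of Cav2 beside the other 5 genes.

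**Figure D1:**
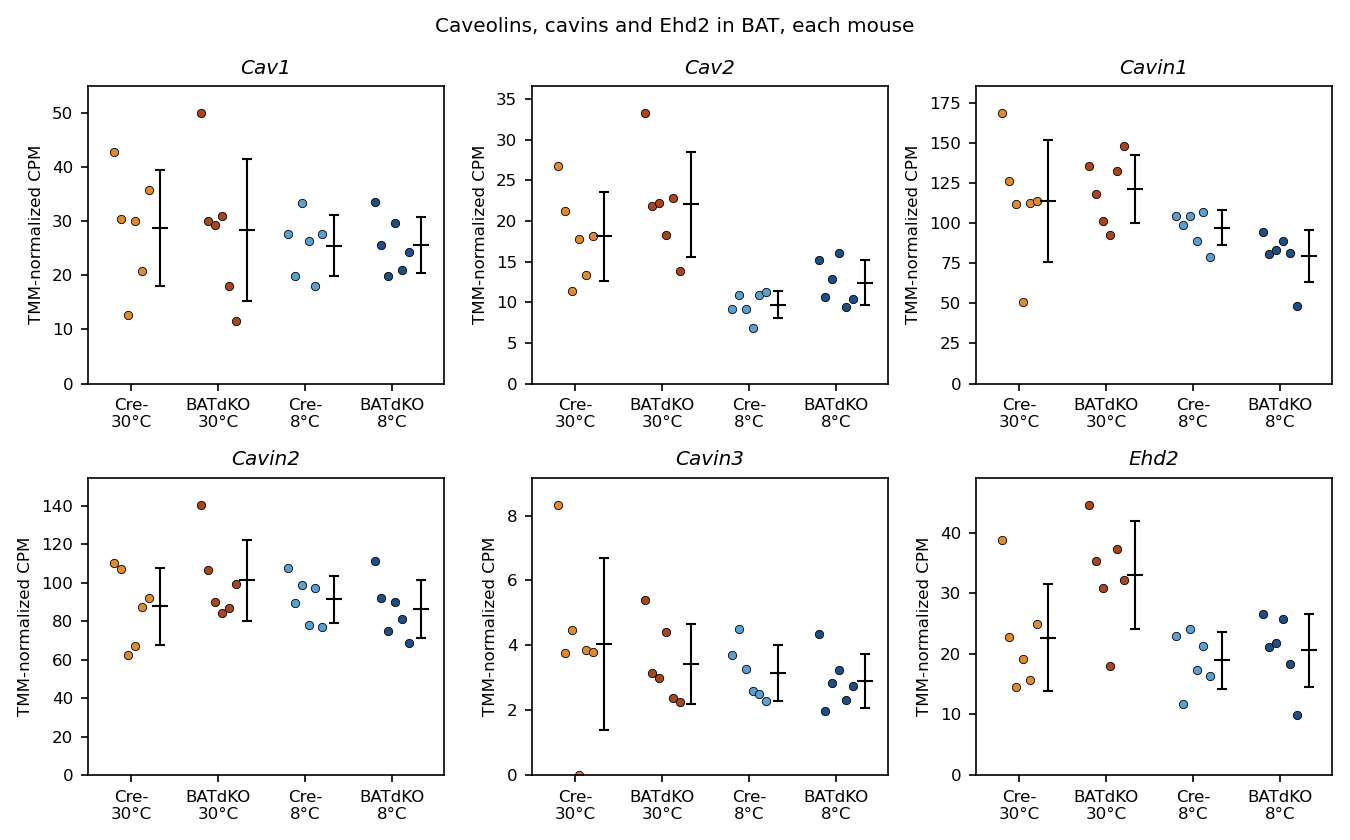
TMM-normalized CPM (y axis, linear, from 0) of the 6 genes in each BAT library, by labelled genotype and temperature (x axis). Points are mice, and black marks are the mean ± SD (n = 6). Cav2 lay at 11.4 to 33.3 CPM at 30°C and at 6.82 to 16.1 CPM at 8°C, and its temperatures overlapped under the BATdKO label. Cav1 overlapped between temperatures under both labels.

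Cav1, the caveolin without which caveolae do not form outside striated muscle, differed little in mean between temperatures and varied widely at 30°C. Its lowest, median and highest levels were 12.7, 30.3 and 42.8 CPM in libraries labelled Cre- at 30°C and 18.0, 27.0 and 33.4 CPM at 8°C. In libraries labelled BATdKO they were 11.6, 29.7 and 50.0 CPM at 30°C and 20.0, 25.0 and 33.5 CPM at 8°C. All 8°C values of Cav1 lay inside the 30°C range of the same label. The cold difference was -0.18 (SE 0.26, 95% interval -0.69 to 0.33) in log2 in libraries labelled Cre- and -0.16 (SE 0.26, -0.67 to 0.35) in those labelled BATdKO. Both intervals include 0 and reach changes in either direction.

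Since Cav1 and Cav2 were counted in the same library, their ratio does not depend on the scaling between libraries. The median number of Cav2 counts per Cav1 count was 0.635 at 30°C and 0.372 at 8°C in libraries labelled Cre-, and 0.742 at 30°C and 0.457 at 8°C in those labelled BATdKO. Its log2 was lower at 8°C by -0.76 (SE 0.23) and -0.77 (SE 0.21), respectively, and the mice of both temperatures overlapped. Between labelled genotypes the log2 ratio differed by 0.33 (BATdKO minus Cre-, SE 0.23) at 8°C, with p = 0.182 in a two-sided exact permutation test over 924 assignments, and by 0.35 (SE 0.21, p = 0.152, exact permutation test) at 30°C. The smallest p this test can give is 0.00216. As the plot of Cav2 per Cav1 shows, the highest ratios, 1.26 and 1.19, were those of mice 5 and 6 labelled BATdKO at 30°C, the mice with the lowest Cav1 of their group. Mouse 6 labelled Cre- at 30°C had the lowest ratio of its group, 0.509. Both mice 6 at 30°C are those whose Tbl1xr1 went against their group, and the difference without both was not computed. Leaving out 1 mouse at a time gave 0.23 to 0.44 at 30°C.

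**Figure D2:**
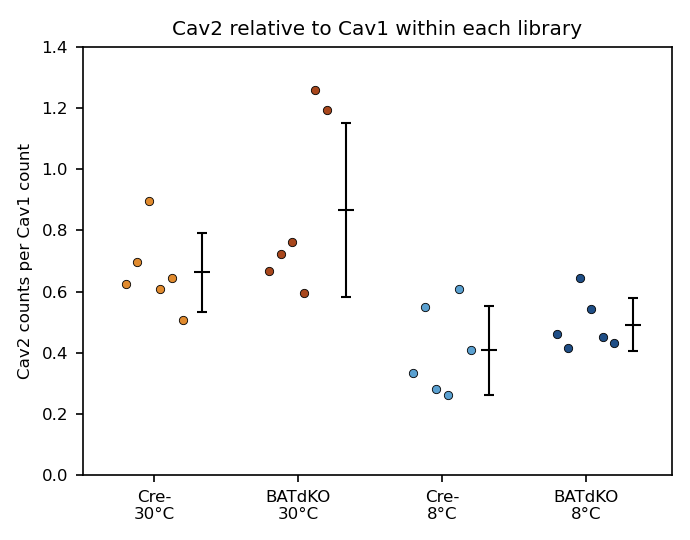
Number of Cav2 counts per Cav1 count (y axis, linear, from 0) in each library, by labelled genotype and temperature (x axis). Points are mice, and black marks are the mean ± SD (n = 6). The group medians were 0.635 and 0.742 at 30°C and 0.372 and 0.457 at 8°C.

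Cavin1, also known as PTRF and required for caveolae in fat, vessels and muscle alike, had lower median levels at 8°C under both labels. In libraries labelled BATdKO its lowest, median and highest levels were 92.6, 125 and 148 CPM at 30°C and 48.3, 82.4 and 94.5 CPM at 8°C. The groups overlapped through mouse 4 at 30°C and mouse 1 at 8°C, and mouse 6 at 8°C stood far below the rest. In libraries labelled Cre- the levels were 50.6, 113 and 169 CPM at 30°C and 78.9, 102 and 107 CPM at 8°C. All 6 Cre- values at 8°C fell within the 30°C range, whose low end was the shallowest library with 37 Cavin1 counts. The cold difference of Cavin1 was -0.61 (SE 0.17) in log2 in libraries labelled BATdKO and -0.27 (SE 0.17) in those labelled Cre-.

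Cavin2, a cavin that bends membrane and recruits Cavin1, had nearly level counts across the 4 groups. In libraries labelled Cre- its lowest, median and highest levels were 62.4, 89.8 and 110.3 CPM at 30°C and 76.9, 93.2 and 107 CPM at 8°C. In libraries labelled BATdKO they were 84.1, 94.7 and 141 CPM at 30°C and 68.9, 85.7 and 111 CPM at 8°C. The groups overlapped under both labels, and the log2 cold differences were 0.03 (SE 0.14) and -0.23 (SE 0.14). Measured as a share of the counts of the 6 genes, Cavin2 was 32.3% ± 3.38 at 30°C and 37.1% ± 1.41 at 8°C in libraries labelled Cre- (SD, n = 6), and 32.7% ± 2.00 and 38.1% ± 2.65 in those labelled BATdKO.

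Cavin3, which couples caveolae to signalling proteins, was near the lower end of detection. In libraries labelled Cre- its lowest, median and highest levels were 0, 3.84 and 8.34 CPM at 30°C and 2.28, 2.93 and 4.52 CPM at 8°C. Those labelled BATdKO lay at 2.25, 3.07 and 5.40 CPM at 30°C and at 1.97, 2.80 and 4.36 CPM at 8°C. The value of 0 came from the library of 699703 counts, in which a count of 0 allows up to 4.29 CPM of the total, a limit of counting error only. The groups overlapped, with log2 cold differences of -0.62 (SE 0.27) and -0.34 (SE 0.29). An exon of Cavin3 overlaps Gm45667 on the other strand, and strand-specific counting is not stated, so reads of these genes cannot be told apart.

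Ehd2, the ATPase that restrains caveolae at the neck, had its highest group median in libraries labelled BATdKO at 30°C. Its lowest, median and highest levels were 17.9, 33.7 and 44.6 CPM there and 9.98, 21.4 and 26.6 CPM in BATdKO at 8°C. In libraries labelled Cre- they were 14.6, 21.0 and 38.7 CPM at 30°C and 11.7, 19.3 and 24.2 CPM at 8°C. The temperatures overlapped under both labels, through mouse 4 in the BATdKO group at 30°C. The cold difference was -0.69 (SE 0.23) in log2 under the BATdKO label and -0.31 (SE 0.24) under the Cre- label.

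Counted by edgeR's quasi-likelihood test at an adjusted p under 0.1, Cav2 was 1 of 6 members called lower at 8°C in libraries labelled Cre-, where 3.59% of the 12485 genes were called lower and 5.57% higher. In those labelled BATdKO, 3 of 6 members (Cav2, Cavin1 and Ehd2) were called lower, where 3.31% of all genes were called lower and 3.76% higher. Nothing is read from these counts, since the choice of members used the cold contrast. The median log2 cold difference of the 6 members was -0.29 in libraries labelled Cre-, against -0.02 over all genes tested, and -0.48 against -0.00 in those labelled BATdKO. These medians include Cav2, so they too are only a description, and nothing is read from them. Single mice moved several of the differences. Without mouse 1 labelled Cre- at 30°C, the cold differences under that label were -0.75 for Cav2, -0.0097 for Cav1, -0.14 for Cavin1, 0.10 for Cavin2, -0.30 for Cavin3 and -0.058 for Ehd2, and without mouse 1 labelled BATdKO at 30°C those under the BATdKO label were -0.69 for Cav2, 0.068 for Cav1, -0.12 for Cavin2 and -0.20 for Cavin3. Over the 24 fits that left out 1 mouse, the BATdKO cold difference was -0.68 to -0.51 for Cavin1 and -0.82 to -0.55 for Ehd2. Ehd2 was called under the BATdKO label in 7 of these 24 fits. It was not called with robust dispersion, at -0.69 (SE 0.26), or without mouse 6 of both 30°C groups, at -0.70 (SE 0.25).

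Marker sums of other cell types also differed between temperatures. The median endothelial sum (12 markers) was 244 CPM at 30°C and 305 CPM at 8°C under the Cre- label and 258 and 281 CPM under the BATdKO label, and the median smooth muscle and pericyte sum (10 markers) was 92.7 and 123 CPM, and 94.2 and 95.6 CPM. The endothelial range was 206 to 257 CPM at 30°C and 244 to 327 CPM at 8°C in libraries labelled Cre-, and 223 to 277 and 252 to 325 CPM in those labelled BATdKO. Among brown adipocyte markers other than Ucp1 (9 markers) the median sum was 1826 CPM at 30°C and 2896 CPM at 8°C under the Cre- label and 3486 and 3282 CPM under the BATdKO label. The macrophage sum (8 of 8 markers) had medians of 229 and 195 CPM, and 255 and 214 CPM, and the sum of adipocyte progenitor and stromal markers (10 of 10) had medians of 216 and 183 CPM, and 203 and 171 CPM. Of 5 Schwann cell markers 2 were in the table, with median sums of 17.9 and 42.9 CPM, and 13.8 and 16.4 CPM. The skeletal muscle fibre sum (13 of 14 markers) had medians of 237 and 508 CPM, and 207 and 54.8 CPM. It ranged from 2.93 to 8810 CPM over the 24 libraries. The part of these sums in the differences was not tested. In RNA of whole tissue, fewer cells of a type and less RNA per cell cannot be told apart.

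No difference between labelled genotypes passed the threshold for any of the 6 genes. At 8°C, 0 of 6 members were called by edgeR and 0 of 6 by DESeq2, where 1.82% and 2.07% of all genes were called. An unadjusted p under 0.05 by edgeR was seen for 0 of 6 members, and for 1153 of all 12485 genes. Cav2 had the largest difference there, 0.34 in log2 (BATdKO minus Cre-, SE 0.21, 95% interval -0.08 to 0.75, adjusted p = 0.705 by edgeR), and 9.40 to 16.1 CPM in libraries labelled BATdKO against 6.82 to 11.3 CPM in those labelled Cre-. Cavin1 was at -0.29 (SE 0.17, -0.62 to 0.04, adjusted p = 0.665). The other 4 genes lay between -0.18 and 0.11. This comparison shares the Cre- mice at 8°C with the cold comparison above, and the one at 30°C likewise shares its Cre- mice.

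At 30°C, 0 of 6 members were called by edgeR and 0 of 6 by DESeq2, where 0% and 0.713% of all genes were called. Of all genes, 1303 of 12485 had an unadjusted p under 0.05 by edgeR. Ehd2 was the 1 member with an unadjusted p under 0.05, at 0.49 in log2 (BATdKO minus Cre-, SE 0.23, 95% interval 0.04 to 0.94, adjusted p = 0.453 by edgeR). Cavin3 was at -0.46 (SE 0.26, -0.97 to 0.06, adjusted p = 0.579) and Cav2 at 0.26 (SE 0.19, -0.12 to 0.63, adjusted p = 0.698). Cavin2, Cavin1 and Cav1 were at 0.18, 0.05 and -0.03, and Cav1 was at 0.21 and Cavin1 at -0.04 without mouse 6 of each label. The median over the 6 members was 0.12 at 30°C and -0.05 at 8°C. Beside these values, the sum of 9 brown adipocyte markers other than Ucp1 at 30°C was 997 to 4441 CPM (median 1826) in libraries labelled Cre- and 1628 to 4477 CPM (median 3486) in those labelled BATdKO, and at 8°C it was 2134 to 3484 CPM (median 2896) and 2246 to 4557 CPM (median 3282). Its part in the genotype comparison was not tested, and differences with libraries scaled to it stand with the other settings.

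The cold difference did not differ detectably between labels in the interaction test. That test called 0 of 6 members by edgeR and 0 of 6 by DESeq2, where 0.0961% and 0.404% of all genes were called. An unadjusted p under 0.05 by edgeR was seen for 0 of 6 members, and for 1005 of all 12485 genes. The interaction of Cav2 was 0.08 in log2 (SE 0.28, 95% interval -0.48 to 0.63) and that of Cav1 0.02 (SE 0.37, -0.70 to 0.74). For Cavin1 it was -0.34 (SE 0.24, -0.80 to 0.13, adjusted p = 0.750) and for Ehd2 -0.38 (SE 0.33, -1.03 to 0.27, adjusted p = 0.814). A larger cold difference of Cavin1 and Ehd2 under the BATdKO label was therefore not established. The plot of log2 fold changes sets the cold and genotype differences side by side.

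**Figure D3:**
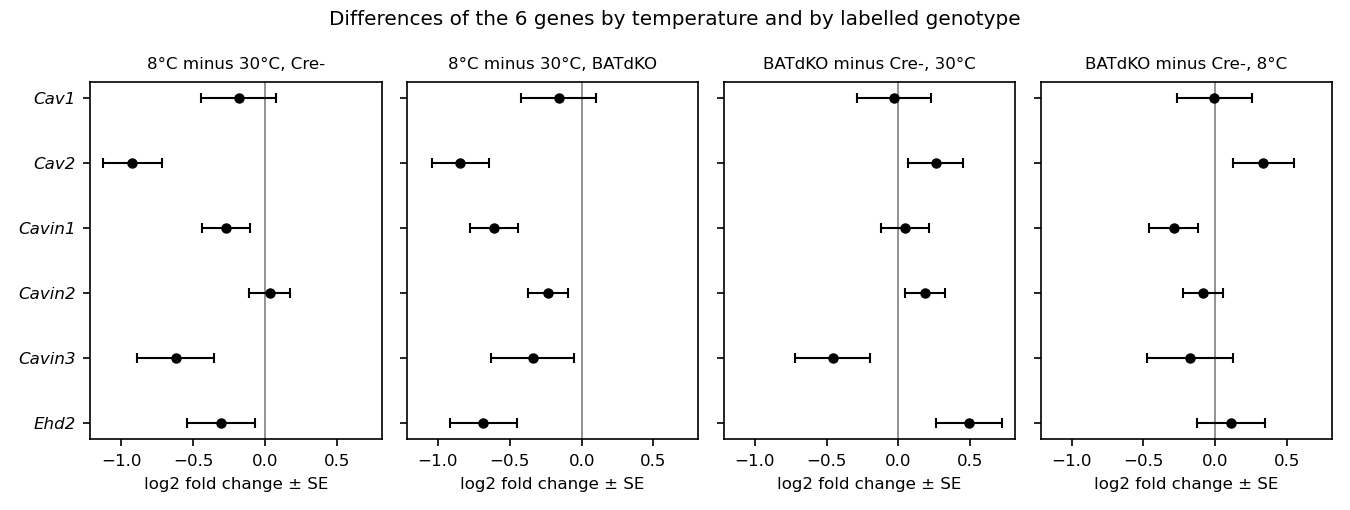
Log2 fold change ± SE (x axis) of the 6 genes (y axis) for 8°C minus 30°C under each genotype label, and for BATdKO minus Cre- at each temperature, from one edgeR model over 24 libraries. Cav2 lay at -0.92 and -0.84 in the cold comparisons, and all genotype differences lay between -0.46 and 0.49.

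Mice of the same group also differed from each other, and the members were compared across them. Correlations were taken over 24 mice on deviations of log2(CPM + 0.5) from the group means, with p from 100000 permutations within groups, whose smallest value is 1e-05, and Benjamini-Hochberg adjustment over 39 relations. Of 15 pairs of members, 14 had r above 0, with a range of -0.02 to 0.72. Cav1 and Cav2 varied together (r = 0.69, rho = 0.52, permutation p = 0.00187 and 0.0194, adjusted 0.00975 and 0.0424), with r = 0.50 without the 2 mice farthest from the median of Cav1. Within groups their r was 0.93 and 0.82 at 30°C in libraries labelled Cre- and BATdKO, and -0.41 and 0.68 at 8°C, so the relation was not seen in Cre- mice at 8°C. Cavin2 and Ehd2 had r = 0.71 (rho = 0.78, permutation p = 0.00075 and 7e-05, adjusted 0.00487 and 0.00125, r = 0.66 without the 2 farthest mice) and r of 0.59 to 0.77 in the 4 groups. Cav1 and Cavin1 had r = -0.02 (rho = 0.11, permutation p = 0.944 and 0.630, adjusted 0.944 and 0.630), and r = 0.14 without the 2 farthest mice. The pair of the highest r, Cavin1 and Cavin3 (r = 0.72, rho = 0.31, permutation p = 0.0203 and 0.165, adjusted 0.0440 and 0.214), was at r = 0.45 without the 2 farthest mice, and 1 of its points is the library with 0 Cavin3 counts.

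The members were compared with summed cell type markers in the same way, and differences between their r values were not tested. Cav1 varied with 9 brown adipocyte markers other than Ucp1 (r = 0.86, rho = 0.88, both permutation p = 1e-05, adjusted 0.000195 and 0.00039), at r = 0.75 without the 2 farthest mice and r of 0.83 to 0.94 within the 4 groups. Cavin1 did not follow them detectably (r = 0.07, rho = 0.15, permutation p = 0.816 and 0.536, adjusted 0.838 and 0.550, r = -0.05 without the 2 farthest mice). For Cav2, Cavin2, Ehd2 and Cavin3, r with the same markers was 0.54, 0.48, 0.40 and 0.29 (adjusted permutation p 0.0480, 0.0836, 0.125 and 0.450). Their rho was 0.43, 0.54, 0.55 and 0.44 (adjusted permutation p 0.0982, 0.0384, 0.0330 and 0.0813). With the endothelial sum, r was 0.55 for Cavin1, 0.62 for Cavin2 and 0.60 for Ehd2 (adjusted permutation p 0.0121, 0.00975 and 0.0121). It was 0.22, 0.17 and 0.33 for Cav1, Cav2 and Cavin3. Within the 4 groups r with the endothelial sum was 0.19 to 0.84 for Cavin1, 0.19 to 0.91 for Cavin2 and 0.37 to 0.80 for Ehd2. Cre- mice at 8°C gave the lowest value for Cavin1 and Cavin2. Without the 2 farthest mice r was 0.41, 0.63 and 0.54 for Cavin1, Cavin2 and Ehd2. With the smooth muscle and pericyte sum, r was 0.57 for Cav1, 0.61 for Cavin2 and 0.56 for Ehd2. It was 0.46, 0.27 and 0.20 for Cav2, Cavin1 and Cavin3. All members had an r below 0 with the summed hepatocyte markers, farthest from 0 for Cavin1, Cavin2 and Ehd2. Against the summed hepatocyte markers r was -0.80 for Cavin1 (rho = -0.77, permutation p = 0.00011 and 0.00013, adjusted 0.00127 and 0.00125, r = -0.73 without the 2 farthest mice), and r was -0.38 in Cre- mice at 8°C and -0.71 to -0.92 in the other 3 groups. For Cavin2 r was -0.79 (rho = -0.76, permutation p = 1e-05 and 0.00016, adjusted 0.000195 and 0.00125, r = -0.79 without them), with -0.48 to -0.92 in the 4 groups. For Ehd2 r was -0.77 (rho = -0.71, permutation p = 0.00013 and 0.00036, adjusted 0.00127 and 0.00201, r = -0.72 without them), with -0.71 to -0.90. For Cav1, Cav2 and Cavin3 r was -0.30, -0.42 and -0.56 (adjusted permutation p 0.304, 0.124 and 0.0490). Their rho was -0.23, -0.30 and -0.31 (adjusted permutation p 0.365, 0.237 and 0.214), and Cavin3 was at r = -0.18 without the 2 farthest mice. The median hepatocyte sum was 31323 and 30801 CPM in libraries labelled Cre- at 30°C and 8°C, and 30417 and 32387 CPM in those labelled BATdKO, with overlapping ranges. CPM values of 1 library share a total, and its part in these relations was not tested.

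**Figure D4:**
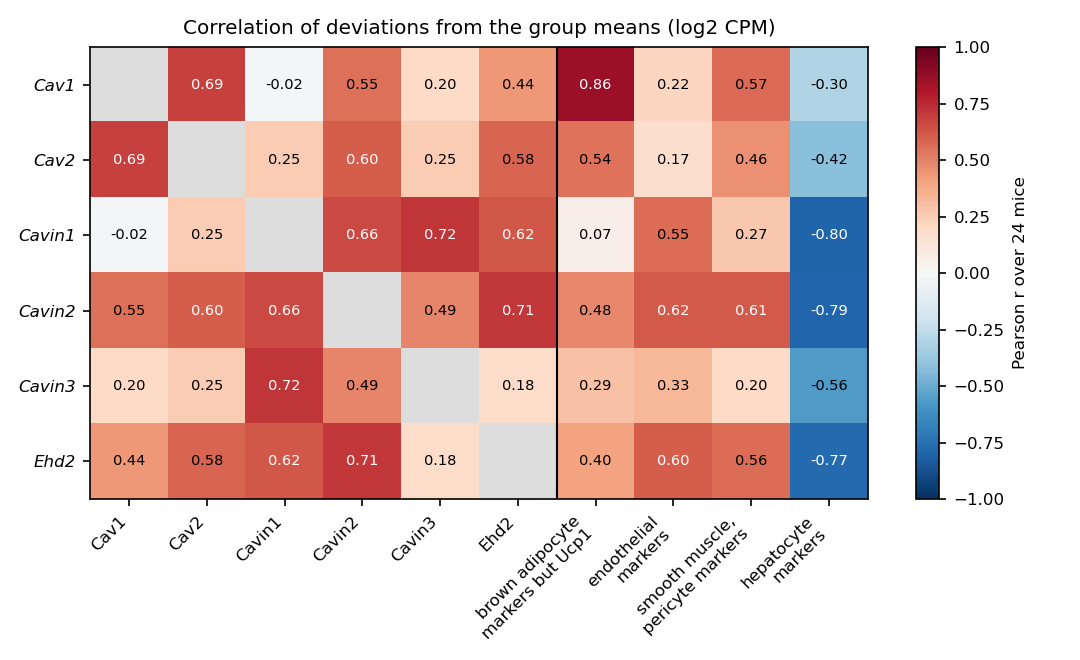
Pearson r over 24 mice (colour and printed value) between each of the 6 genes (y axis) and the other members or the summed markers of 4 cell types (x axis), on deviations of log2 CPM from group means. The strongest positive value is that of Cav1 with brown adipocyte markers other than Ucp1 (0.86), and the strongest negative one is that of Cavin1 with hepatocyte markers (-0.80).

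Among 6106 genes with a mean of at least 10 CPM, those with the highest r to each member over the 24 mice, on the same deviations, differed from member to member. For Cav1 they were Ctsb, which encodes the lysosomal protease cathepsin B, Iscu, a scaffold for iron-sulfur clusters, and Ndufa4, a respiratory chain subunit (each r = 0.93). Cav2 was most like Trarg1, a regulator of glucose transporter traffic (r = 0.81), the noncoding RNA Bc1 (r = 0.76) and Gtf2h5 (r = 0.75). The nearest genes to Cavin1 were Rala, a small GTPase of exocytosis (r = 0.89), and the glycolytic enzyme gene Pkm and the glycogen synthase gene Gys1 (both r = 0.87). Genes close to Cavin2 included Mrpl34 (r = 0.85) and Ndufc1 (r = 0.84). Ehd2 was nearest to Tkt, transketolase (r = 0.94), Me1, cytosolic malic enzyme (r = 0.89), and the fatty acid elongase gene Elovl6 (r = 0.88). For Cavin3 they were Cdkal1 (r = 0.89), Cpd and Vamp3 (both r = 0.88), with rho of 0.56 to 0.68. These values are the highest of many and are given as a description.

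Of 27 genes for proteins that sit in or next to caveolae, 21 were in the table and all 21 were tested, and the muscle relatives Cav3 and Cavin4 are not analysed here. In libraries labelled Cre- the cold comparison called 1 of 21 higher and 2 of 21 lower, where 5.57% and 3.59% of all genes were called, with a median log2 difference of -0.01. Aqp1, a water channel of endothelial cells, fell by 0.71 in log2 (SE 0.11, adjusted p = 0.000102 by edgeR), from 92.1 to 146 CPM (median 98.9) at 30°C to 60.8 to 70.4 CPM (median 64.1) at 8°C. These groups did not overlap, and the share of all genes without overlap was not counted. Ehd4, a paralog of Ehd2 that works on endosomes, fell by 0.55 (SE 0.12, adjusted p = 0.00345), with medians of 16.6 and 11.7 CPM and ranges that overlapped. Cd36, the fatty acid translocase that caveolin-1 helps to keep at the surface, rose by 0.51 (SE 0.17, adjusted p = 0.0832), with medians of 134 and 175 CPM, and the groups overlapped. Its call was lost in 6 of 24 fits that left out 1 mouse, namely mice 3 and 5 at 30°C and mice 1, 4, 5 and 6 at 8°C, all labelled Cre-, where its log2 difference was 0.37 to 0.52. In libraries labelled BATdKO, 0 of 21 were called higher and 1 of 21 lower (3.76% and 3.31% of all genes, median of the 21 -0.03), and Aqp1 fell there by 0.38 (SE 0.11, adjusted p = 0.0477), with medians of 80.3 and 62.1 CPM, and the groups overlapped. That call was lost without mouse 6 at 30°C (-0.28) or mouse 1, 2 or 6 at 8°C (-0.36 to -0.34), all labelled BATdKO. Ehd1, Ehd3 and Pacsin2, which bends membrane at the caveolar neck, were at 0.14, -0.07 and 0.17 in log2 in the cold under the Cre- label and at 0.13, -0.02 and 0.17 under the BATdKO label, with SE of 0.09 to 0.11 and no call. By genotype at 8°C, edgeR called 0 of 21 (1.82% of all genes) and DESeq2 called 0 of 21 (2.07%). An unadjusted p under 0.05 by edgeR was seen there for 2 of 21, and for 1153 of all 12485 genes. At 30°C, edgeR called 0 of 21 (0% of all genes) and DESeq2 called 1, Cd36 (0.713%). There 4 of 21 had an unadjusted p under 0.05 by edgeR, beside 1303 of all 12485 genes. The interaction test called 0 of 21 by edgeR (0.0961% of all genes) and 0 of 21 by DESeq2 (0.404%). An unadjusted p under 0.05 by edgeR was seen for 3 of 21, and for 1005 of all 12485 genes. Without mouse 6 of each label at 30°C, 3 of 21 were called by genotype at 30°C, Cd36 and Aqp1 among them, where 500 of 12500 genes were called.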

How the data were processed

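BAT RNA was sequenced with Lexogen's QuantSeq 3′ kit. The authors aligned trimmed reads to GRCm38 with STAR 2.5.3a and deposited raw gene counts, not normalized, for 24 libraries and 12615 genes, of which 12608 matched a symbol. Strand-specific counting and the annotation release are not given in the sources used here. The paper mentions the removal of outliers, and all 24 libraries were used here.

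Counts were fitted in R 4.3.3 with edgeR 4.0.16 (TMM, filterByExpr on the 4 groups, quasi-likelihood test, one mean per group over all libraries, limma 3.58.1), with Benjamini-Hochberg adjustment over 12485 genes and the study's threshold of 0.1. Each SE was obtained from the log2 fold change and its F statistic. P-values measure the spread between these mice. The edgeR and DESeq2 fits were tested on simulated data with known changes. The log2 ratio of Cav2 to Cav1 had 1 count added to each. Total counts of 699703 to 11527643 gave the precision, and limits for a count of 0 use 3 counts and cover counting error only.

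The members, gene lists and tests were chosen with earlier results of these data known, and the motifs with the upstream sequences in view. Named genes were all members, called caveolar partners, the EHD genes, Pacsin2, Tbl1xr1, Tbl1x, Ucp1 and the 3 genes of highest r to each member; Alb was named after its values were seen. One gene that this rule would name is not reported here. Replicate libraries all differed by more than sampling noise. Alternatives were RLE normalization, no filter, robust dispersion, a normalized count averaging at least 10, DESeq2 1.42.0, only the groups compared, 0.5 counts added to the ratio, and leaving out each mouse. Leaving out mouse 6 of both 30°C groups, leaving out the shallowest library, and scaling to 9 brown adipocyte or 12 endothelial markers were added after seeing the data.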

Additional observations from a re-analysis of the deposited data

Results flagged for a closer look

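Of 28 sets of 6 values examined for a mouse far from the others of its group, 1 stood apart. Cavin1 in BATdKO mouse 6 at 8°C was at 48.3 CPM, the lowest of its group, with a gap to the next mouse of 0.707 of the group's range, above Dixon's critical value at 95%. Chance flags about 1 in 20 such sets. Ehd2 in that library was also the lowest of its group, at 9.98 CPM. The log2 cold difference of Cavin1 under the BATdKO label was -0.61 with this mouse and -0.51 without it.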

How the results depend on the processing

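No paired analysis was possible because the mouse numbers in the labels are unique and pair no mice between groups. Of the values recomputed for single genes, 969 kept their direction and side of the threshold or moved by less than the spread between mice, 39 genotype or interaction differences changed sign, 4 moved by more than that spread, and 2 passed the threshold that had not. The number of members called in the cold under the Cre- label was 4 when scaled to endothelial markers (43.6% of all genes called), and under the BATdKO label 0 when scaled to brown adipocyte markers (0.729%). Scaling to brown adipocyte markers moved the median of all genes to -0.59 and -0.10 in the cold under the Cre- and BATdKO labels, to -0.21 and -0.69 by genotype at 8°C and 30°C, and to 0.48 for the interaction, and scaling to endothelial markers moved it to -0.31, -0.17, 0.07, -0.06 and 0.13. With the first, 2 members were called by genotype at 30°C, Cav1 at -0.71 and Cavin3 at -1.13, beside 54.6% of all genes, where Cav2 was at -0.38, Cavin1 at -0.50 and Cavin2 at -0.43. There Ehd2 was at -0.10 by genotype at 8°C and the interaction of Cavin2 was 0.10. Cav1 by genotype at 8°C was at 0.0075 with DESeq2 and at 0.054 with endothelial scaling. Without mouse 6 of both 30°C groups, the genotype differences at 30°C were 0.21 for Cav1 and -0.035 for Cavin1, and the interactions were -0.22 for Cav1 and -0.022 for Cav2. Without the shallowest library, Cavin1 by genotype at 30°C was at -0.063.

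Partners called in the cold numbered 10 of 21 under the Cre- label and 7 under the BATdKO label with endothelial scaling (43.6% and 12.3% of all genes), and under the BATdKO label 2 without mouse 6 of both 30°C groups (6.13%) and 0 with brown adipocyte scaling (0.729%). By genotype 1 was called at 8°C with only the groups compared (4.01% of all genes), and at 30°C 1 with DESeq2 (0.713%), 3 without mouse 6 of both groups (500 of 12500 genes) and 12 with brown adipocyte scaling (54.6%). Leaving out each mouse gave 0 to 1 partners in the cold under the BATdKO label and 0 to 2 by genotype at 30°C. The cause of these changes was not tested. Leave-one-out fits turned the sign of differences near 0, over ranges of -0.33 to 0.068 (Cav1, cold, BATdKO label), -0.061 to 0.10 (Cavin2, cold, Cre- label), -0.089 to 0.079 (Cav1, genotype at 8°C), -0.26 to 0.15 and -0.063 to 0.19 (Cav1 and Cavin1, genotype at 30°C), and -0.16 to 0.25, -0.10 to 0.23 and -0.050 to 0.42 (interaction of Cav1, Cav2 and Cavin3). Depth limits Cavin3 most, with at most 106 counts in a library.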
